A study of Mus musculus with 69 samples.

Results

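T cells labelled as Tbx21 knockout were compared with wild-type controls after culture under conditions that drive naive CD4 T cells toward type 1 regulatory (Tr1) cells, which are known for secreting IL-10. The 4 libraries were taken by their titles from a series of 69, with 2 knockout and 2 control libraries. All 4 are labelled C57BL/6, with the genotype given as "Tbx21 KO" or "WT". Naive cells received anti-CD3 (1 ug/ml), an antibody written as anti-CD8 in the labels at the same concentration, and IL-27 (25 ng/ml), which induces IL-10 in CD4 T cells; they were harvested at 72 h. Each library came from 2000 lysed cells by a modified SMART-Seq2 protocol, which reads whole polyadenylated transcripts from small inputs. The labels give no Cre line, promoter or deleted exon for the Tbx21 knockout, and nothing on age, sex, pooling or whether 2 libraries of a group came from separate animals, so the p-values measure the spread between libraries, which may be technical. By its title, the series is about what regulates IL-10 in T helper cells.

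Tbx21 encodes T-bet, the T-box transcription factor that directs the Th1 programme of CD4 T cells. T-bet binds T-box elements near its target genes, Ifng among them, and it is known to restrain the Th2 factor GATA3 and the Th17 programme. In cytotoxic lymphocytes it acts beside its paralogue Eomes on granule genes such as Gzmb and Prf1. IL-27 itself signals through STAT proteins and raises T-bet in naive cells.

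Library totals lay between 4454248 and 4863122 expected counts, with 13613 to 13880 genes detected in each. Levels below are CPM, which are counts scaled to library size with TMM factors. Differences are log2 fold changes of knockout over control, each with its SE, the standard error in the edgeR fit. Of 10978 genes tested with edgeR's quasi-likelihood test, 745 passed an adjusted p (Benjamini-Hochberg) of 0.05, which is 6.79% of them. Of these, 331 rose (3.02%) and 414 fell (3.77%), and the median log2 change of all tested genes was 0.01. Without control 1 the count was 195, without knockout 1 it was 1730 and without knockout 2 it was 1429. Counts with 1 library left out, here and in the gene lists below, come from fits with 1 library in a group. Because they moved over all tested genes, a moved count in a list is not read as a trait of that list. The shares of 3.02% and 3.77% are the background for every list count below. A list near them is not read as changed. The first principal component held 67.9% of the variance and separated knockout from control, and the second held 21.1% and set knockout 1 apart from knockout 2. In bulk libraries such as these, fewer cells of a type and less RNA per cell cannot be told apart.

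The targeted gene was checked first. Tbx21 stood at 16.7 and 15.2 CPM in the knockout libraries and at 71.7 and 88.8 CPM in the controls. Both knockout libraries lay below both controls, as their labels imply, but neither was at 0, with 80 and 69 counts. The log2 change was -2.33 ± 0.18 (SE, adjusted p = 0.000812). The counts are per gene, so reads from a deleted part and from the rest of the gene could not be separated. In 26 other control libraries of the series Tbx21 ranged from 57.3 to 368 CPM of the library total (median 166). Of 26 genes of chromosome 11 listed as neighbours of Tbx21, 23 were tested, none rose and 2 fell, with a median log2 change of -0.06. Those 2 were Copz2, a coat protein subunit, at 3.77 and 5.51 against 15.9 and 10.8 CPM, and Itgb3, an integrin subunit that lies farther along the chromosome than the others, at 27.0 and 47.0 against 82.5 and 75.9 CPM. Both calls were lost without control 1, where the adjusted p was 0.311 and 0.0939. Tbkbp1, the gene next to Tbx21, stood at 99.6 and 88.0 against 83.7 and 84.4 CPM (adjusted p = 0.54).

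Promoter windows of the genes with the largest falls are shown here because T-bet binds T-box elements. The windows are RefSeq's on GRCm38.p6, from 250 bases before a gene's start to 50 after, and are not the mm9 build the authors aligned to. Of the 414 genes that fell, 306 had a window. The T-box element was searched as AGGTGTGA and its reverse complement TCACACCT. It stood in a window of 12 of those 306 genes (3.92%), of 2 of 256 matched genes that rose (0.781%) and of 84 of 8248 matched genes tested (1.02%). Over all 27025 genes with a window the share was 1.48%. The shorter core AGGTGT, with its complement ACACCT, lies inside the longer element and is common, in 15.7% of all genes with a window. It stood in a window of 16.7% of matched genes that fell, 13.3% of those that rose and 13.0% of matched genes tested. A match is a description of the sequence and not a measured binding site. Each stretch below holds the full element in capitals with up to 10 bases on either side, for the genes that fell, in order of their log2 change, on the gene's own strand.
Nkg7, chr7:43437114-43437141 (+): ggggtagggaAGGTGTGAgaagaatcag
Chit1, chr1:134111157-134111184 (+): cattactagaAGGTGTGAccttgtagga
AA467197, chr2:122637673-122637700 (+): ttggctgctaTCACACCTgaacctgaac
Mctp2, chr7:72306731-72306758 (-): ctccttcgtgTCACACCTggaagagtca
Pglyrp1, chr7:18884601-18884628 (+): agtcccgcccAGGTGTGAagcaagccct
Samsn1, chr16:75909452-75909479 (-): gccatgtcaaAGGTGTGAgctaagaatt
Sema4a, chr3:88461133-88461153 (-): gctgggggtaAGGTGTGAaag
Sh3kbp1, chrX:159840310-159840337 (+): gtgtgtgtggTCACACCTttgggcactg
Dmwd, chr7:19076009-19076036 (+): ttcccaacagTCACACCTcgtagccaac
Gtdc1, chr2:44927429-44927456 (-): ggcggagagcAGGTGTGAggagccgcgc
Rab27a, chr9:73044668-73044695 (+): tctgtggttcTCACACCTttcagaaggg
Dhx40, chr11:86807789-86807816 (-): tcaggtgttcAGGTGTGActtcgcgggt

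These 12 genes were chosen by the match and not by the naming rule, and their log2 changes ran from -6.22 for Nkg7 to -0.79 for Dhx40. Rab27a is needed for release of cytotoxic granules, and Pglyrp1 encodes a peptidoglycan recognition protein. Among the 12 genes with the largest falls, 10 had a window, 1 of them (Nkg7) held the full element and 2 (Nkg7 and Prf1) held the core. The 250 bases before the start are shown for Nkg7, with the full element 14 bases before the start, for Prf1, with only the core 24 bases before the start, and for Ifng, whose window holds neither.
Nkg7, chr7:43436888-43437137 (+): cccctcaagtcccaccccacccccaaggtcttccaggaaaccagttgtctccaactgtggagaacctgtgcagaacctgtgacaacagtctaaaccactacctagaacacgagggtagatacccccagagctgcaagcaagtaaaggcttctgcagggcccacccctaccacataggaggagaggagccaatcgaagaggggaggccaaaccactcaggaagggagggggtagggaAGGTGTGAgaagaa
Prf1, chr10:61297586-61297835 (+): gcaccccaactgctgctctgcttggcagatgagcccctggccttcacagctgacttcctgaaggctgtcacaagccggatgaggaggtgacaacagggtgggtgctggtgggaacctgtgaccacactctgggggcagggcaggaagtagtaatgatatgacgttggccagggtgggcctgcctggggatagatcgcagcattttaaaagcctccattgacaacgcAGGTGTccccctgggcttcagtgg
Ifng, chr10:118440796-118441045 (+): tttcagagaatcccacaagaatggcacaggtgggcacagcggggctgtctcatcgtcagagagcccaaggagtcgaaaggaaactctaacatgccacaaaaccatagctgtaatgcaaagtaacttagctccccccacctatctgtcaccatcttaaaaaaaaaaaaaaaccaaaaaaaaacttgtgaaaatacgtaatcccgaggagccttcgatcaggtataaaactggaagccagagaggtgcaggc

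The regulators of the Th1 programme fell more often than they rose. Of 20 tested T-box and Th1 regulator genes, 8 fell, Tbx21 among them, and 1 rose, with a median log2 change of -0.48 beside 0.01 for all tested genes. That median was -0.76 without knockout 1 and -0.29 without knockout 2, and 3 rose without the latter. Hlx, a homeobox factor that acts with T-bet on Ifng, stood at 1.05 and 1.32 CPM in the knockout and at 28.1 and 34.6 CPM in the controls. Both knockout libraries were below both controls, which was a condition for its place among the largest falls. The log2 change was -4.70 ± 0.32 (SE, adjusted p = 0.000334).

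The receptor chains for interferon gamma moved in opposite directions. Ifngr1, the ligand-binding chain, was at 38.7 and 31.3 against 105 and 112 CPM (log2 change -1.63 ± 0.16, adjusted p = 0.00231). Ifngr2, the signalling chain, was at 37.3 and 36.8 against 8.63 and 6.80 CPM (2.26 ± 0.22, adjusted p = 0.00206), and was the regulator that rose. Il12rb2, the signal-transducing chain of the IL-12 receptor, was at 464 and 321 against 912 and 904 CPM (-1.21 ± 0.19, adjusted p = 0.0124). None of these 3 had overlapping groups, as was so for 57.7% of all tested genes. Zeb2, a repressor that acts with T-bet in effector lymphocytes, was at 20.9 and 12.8 against 35.4 and 51.2 CPM (-1.36 ± 0.28, adjusted p = 0.0279), and its adjusted p was 0.0722 without control 2. The other 3 regulators that fell were outside the naming rule and chosen after their values were seen: Runx3, a partner of T-bet (-0.97, adjusted p = 0.0248), the STAT protein of IL-12 signalling Stat4 (-0.79, adjusted p = 0.0309) and Id2 (-1.15, adjusted p = 0.00778). Eomes, the T-box paralogue, was scarce and differed between libraries of a group, at 3.77 and 0.882 against 0.664 and 2.76 CPM (adjusted p = 0.784), and no other T-box gene was tested.

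**Figure D1:**
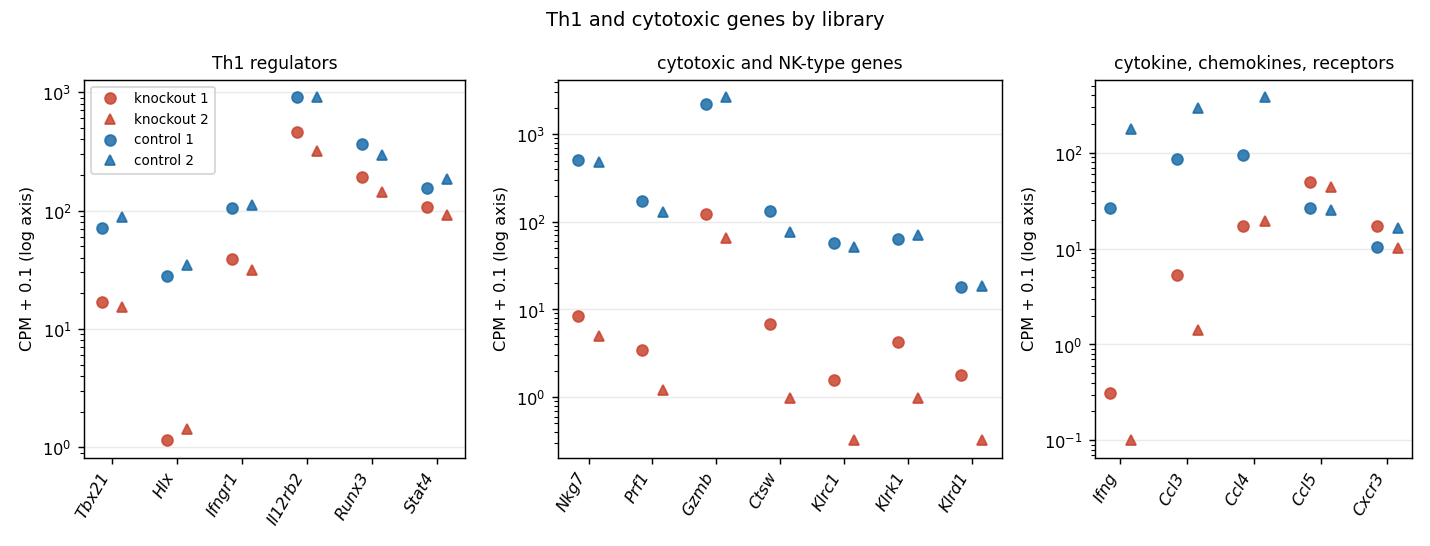
CPM plus 0.1 on a log axis for Th1 regulators, cytotoxic and NK-type genes, and Ifng with chemokine genes; each point is a library, red for knockout, blue for control, circles for replicate 1 and triangles for replicate 2. Nkg7 is at 8.37 and 4.85 CPM in knockout against 510 and 483 in control libraries, while Cxcr3 points of both groups overlap and Ccl5 is higher in knockout.

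Among Th1 effector genes, 9 of 19 tested members fell and 1 rose, with a median log2 change of -1.34. That median was -0.68 without knockout 2, -0.89 without control 1 and -0.72 without control 2. Ifng, the defining Th1 cytokine, had 118 and 835 counts in the controls, and 1 and 0 counts in the knockout. In CPM the controls were at 26.1 and 177 and the knockout libraries at 0.209 and 0, so the controls differed between themselves and the groups stood far apart. From the summed counts, Ifng was 889 times higher in the controls, with a 95% exact interval of 159 to 35142 that covers counting error only, and the edgeR test gave an adjusted p of 0.0105. In 60 other libraries of the series with at least 100000 counts, Ifng ranged from 0.514 to 1178 CPM of the library total, with a median of 83.9. The lowest was Fosl2 knockout library 1, where 84.8% of the counts were Rn45s, a ribosomal RNA gene. The chemokine gene Ccl3 was at 5.23 and 1.32 against 85.6 and 296 CPM (log2 change -5.83 ± 0.71, adjusted p = 0.00478). Its neighbour Ccl4 was at 17.2 and 19.2 against 94.7 and 381 CPM (-3.71 ± 0.58, adjusted p = 0.0114), and its log2 change was -2.38 without control 2. For all 3 genes control 2 was the higher control. No knockout library reached the lower control, as was so for 28.8% of all tested genes. That separation was a condition for ranking these genes among the largest falls, so it is not read as a result.

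Spp1, which encodes osteopontin, stood at 8.58 and 1.32 against 89.2 and 69.7 CPM (log2 change -3.98 ± 0.48, adjusted p = 0.00466). Havcr2, which encodes TIM-3, was scarce in the controls, at 17 and 25 counts, and had 0 and 1 counts in the knockout. It was 39.2 times higher in the controls by summed counts (95% exact interval 6.66 to 1584, adjusted p = 0.0155), but its adjusted p was 0.0591 without control 1 and 0.0697 without control 2. Ccl5 moved the other way from Ccl3 and Ccl4: it was at 49.8 and 43.5 against 26.6 and 24.9 CPM (0.86 ± 0.17, adjusted p = 0.0263). Without control 1 or control 2 the Ccl5 call was lost (adjusted p = 0.115 and 0.0878). Cxcr3, the Th1 homing receptor, was at 17.0 and 9.93 against 10.2 and 16.2 CPM, with overlapping groups (log2 change 0.03 ± 0.34, adjusted p = 0.966). Without knockout 1 or control 1 the sign of its log2 change turned, to -0.41 and -0.26.

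Of 4 chemokine genes tested, 3 fell and 1 rose, with a median log2 change of -3.93. That median depends on the count filter: without it 15 were tested, 3 fell, 2 rose and the median was -0.58. With the filter, and without knockout 1, control 1 or control 2, 6 were tested and the median was -1.44, -1.74 and -0.79. The third that fell was Ccl9, at 1.26 and 0.441 against 4.65 and 26.6 CPM, and its adjusted p went from 0.036 to 0.165 without control 2. Among 11 chemokine receptor genes tested, 3 fell and 1 rose, with a median of -0.49, and without knockout 1 there were 6 falls and 3 rises, with a median of -0.84. Without knockout 2, control 1 or control 2, with 13 tested, the median was -0.05, -0.26 and -0.05. Ccr2, a receptor for monocyte-attracting chemokines, was at 2.93 and 4.19 against 16.6 and 17.4 CPM (log2 change -2.25 ± 0.31, adjusted p = 0.00708). Its groups did not overlap, as was so for 57.7% of all tested genes. Cxcr5, the follicle-homing receptor, was at 6.91 and 7.94 against 14.8 and 23.0 CPM (adjusted p = 0.0359, but 0.157 without control 2).

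Cytotoxic genes held several large falls. Of 16 tested cytotoxic granule genes, 9 fell and none rose, with a median log2 change of -1.25. Nkg7, a granule membrane protein, was at 8.37 and 4.85 CPM in the knockout and at 510 and 483 CPM in the controls (-6.22 ± 0.25, adjusted p = 4.22e-05). Prf1, which encodes perforin, was at 3.35 and 1.10 against 172 and 129 CPM (-6.05 ± 0.34, adjusted p = 0.000327). Gzmb, which encodes granzyme B, was at 123 and 65.1 against 2212 and 2671 CPM (-4.69 ± 0.31, adjusted p = 0.000334). On the length-scaled TPM deposited by the authors, Gzmb was at 2411 and 3007 in the controls and Nkg7 at 993 and 971, so Gzmb was the more abundant transcript there, and in the knockout they were at 153 and 80.3 and at 18.5 and 10.7. Gzmb remained measurable in both knockout libraries, with 589 and 295 counts.

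Ctsw, a cathepsin of cytotoxic lymphocytes, was at 6.70 and 0.882 against 132 and 76.9 CPM (log2 change -4.75 ± 0.52, adjusted p = 0.00351). Serpinb6b, a serpin gene, was at 66.3 and 74.6 against 386 and 482 CPM (-2.62 ± 0.18, adjusted p = 0.000334). Gzma did not pass and pointed the other way, at 9.42 and 38.6 against 2.21 and 5.95 CPM (2.54, adjusted p = 0.0603), and granule genes such as Srgn, Lamp1 and Unc13d had log2 changes of 0.05, -0.01 and -0.07, none past the threshold.

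Of 7 tested NK-type receptor genes 5 fell, none rose and the median was -4.19, or -2.84 without control 2 (6 tested). Some members, such as Klre1, passed the count filter through the controls alone, which favours a fall. Without that filter 16 were tested, 5 fell, 0 rose and the median was -1.49. Klrc1, which encodes NKG2A, was at 1.47 and 0.221 against 57.1 and 51.4 CPM (log2 change -5.94 ± 0.40, adjusted p = 0.000334). Klrd1, which encodes its partner CD94, was at 1.67 and 0.221 against 17.9 and 18.3 CPM (-4.19 ± 0.52, adjusted p = 0.00497). Klrk1, which encodes NKG2D, was at 4.19 and 0.882 against 64.4 and 70.8 CPM (-4.70 ± 0.40, adjusted p = 0.00115). In all 3 genes knockout 2 was the lower knockout library. Klre1 had 0 counts in both knockout libraries and 11 and 15 in the controls, which makes it at least 4.03-fold lower when each knockout library is set to 3 counts (adjusted p = 0.0251, and 0.13 without control 1). Crtam, a class I restricted T cell adhesion molecule, was at 3.98 and 3.97 against 11.3 and 20.8 CPM (adjusted p = 0.0215, and 0.0969 without control 2).

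Markers of CD8 T and NK cells were low in all 4 libraries. The sums over markers in this paragraph are CPM of the library total, without TMM factors, unlike the levels of single genes. Of 11 such markers, Ncr1, Klrb1c and 3 Klra genes were at 0 in all 4 libraries, and the summed level was 25.6 to 27.0 CPM in the knockout and 20.8 to 22.3 CPM in the controls. Cd8a was at 1.67 and 1.10 against 4.87 and 1.06 CPM, and Cd8b1 at 19.0 and 22.5 against 12.6 and 12.3 CPM. The 1 marker that fell was Itga2, an integrin that is also listed for Tr1 cells, at 0.419 and 0.441 against 3.10 and 3.61 CPM (adjusted p = 0.036). Its call was lost without any 1 of the 4 libraries, with adjusted p-values of 0.0607 to 0.269. B cell markers summed to 31.4 to 45.7 CPM in the knockout and 24.9 to 31.4 CPM in the controls, with 0 of 5 tested members past the threshold. For myeloid and dendritic cell markers the sums were 48.3 to 68.3 against 71.6 to 76.6 CPM, with 0 of 3 tested members called and 7 of 18 at 0 in all 4 libraries, Lyz2 and S100a8 among them. For erythroid and platelet markers 0 of 1 tested members was called, and the sums were 3.82 to 3.99 against 4.84 to 4.94 CPM. Whether other cells had a part in the results was not tested.

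CD4 T cell markers, which define the labelled cell type, were abundant in every library, with Cd4 at 440 and 417 against 731 and 563 CPM. Of 16 such markers 4 fell and none rose, with a median log2 change of -0.23. They were the CD3 chains Cd3d (-1.01 ± 0.17, adjusted p = 0.0145) and Cd3e (-0.95 ± 0.20, adjusted p = 0.0295), the zeta chain Cd247 (-0.79 ± 0.18, adjusted p = 0.0387) and Thy1 (-0.64 ± 0.15, adjusted p = 0.043). All 4 calls were lost without control 1, where the adjusted p-values were 0.105, 0.209, 0.21 and 0.303. Cd247 and Thy1 were also lost without control 2 (0.0812 and 0.123), and Thy1 without knockout 2 (0.0583). The listed Y-linked genes had at most 1 count in a library, and Xist, at 335 to 870 CPM, did not pass (adjusted p = 0.542).

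Il10, the subject of the series, did not pass the threshold. It was at 4.19 and 21.4 CPM in the knockout and at 27.9 and 61.2 CPM in the controls. Both knockout libraries lay below both controls, but libraries of the same group differed widely, and the log2 change was -1.81 ± 0.59 (SE, adjusted p = 0.102). Among all tested genes, 28.8% had both knockout libraries below both controls. The call turned on single libraries: without knockout 1 the log2 change was -1.06 (adjusted p = 0.00856), without knockout 2 it was -3.41 (adjusted p = 1.31e-06), without control 1 it was -2.27 (adjusted p = 0.0504) and without control 2 it was -1.13 (adjusted p = 0.286).

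The chains of the IL-10 receptor both fell. Il10ra was at 45.2 and 51.4 against 135 and 91.0 CPM (log2 change -1.22 ± 0.21, adjusted p = 0.0156, and 0.0527 without control 1). Il10rb was at 22.2 and 22.1 against 47.1 and 47.8 CPM (-1.10 ± 0.17, adjusted p = 0.0103). Within the IL-10 family and receptor list 5 members were tested, and the others that passed were higher in the knockout. Il22, a cytokine of the family made by Th17 cells, was at 49.6 and 17.0 against 0.221 and 1.91 CPM (4.91 ± 0.72, adjusted p = 0.00952). Il24, another member of the family, was at 39.8 and 108 against 11.5 and 17.4 CPM (2.35 ± 0.44, adjusted p = 0.0221), with a log2 change of 1.45 without knockout 2.

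**Figure D2:**
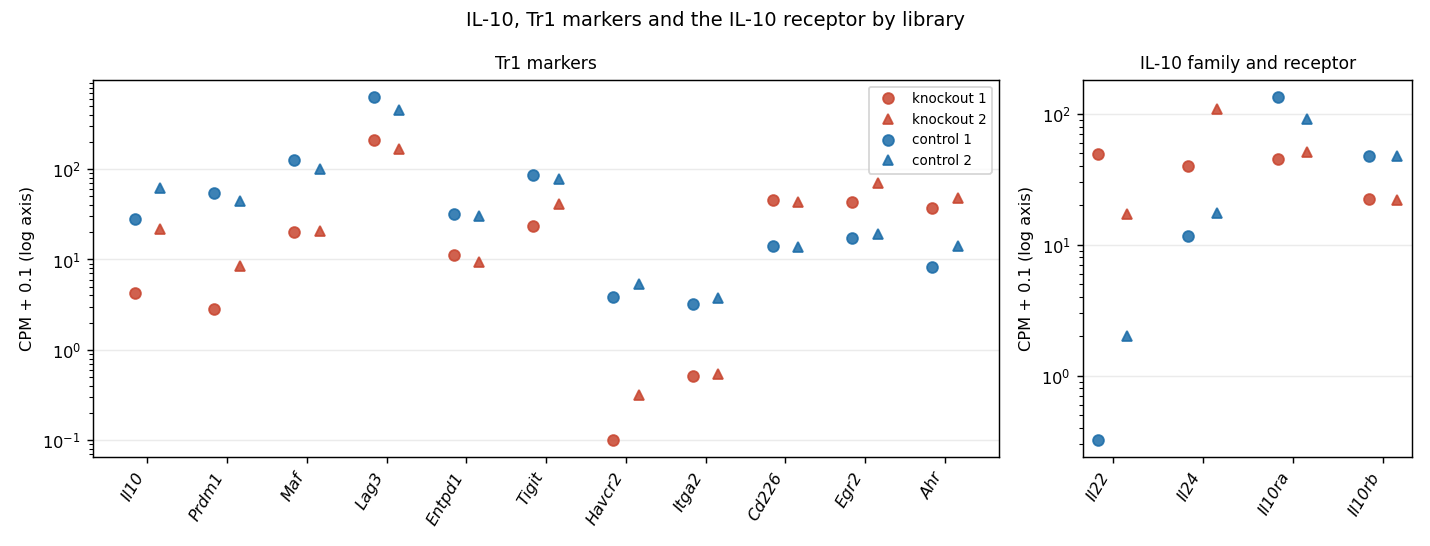
CPM plus 0.1 on a log axis for Tr1 markers and for the IL-10 family and receptor; each point is a library, red for knockout, blue for control, circles for replicate 1 and triangles for replicate 2. Prdm1 and Maf are lower in both knockout libraries, Cd226, Egr2 and Ahr are higher, and Il10 spans 4.19 to 61.2 CPM.

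Of 21 Tr1 markers, all tested, 9 fell and 4 rose, with a median log2 change of -0.69. Without knockout 2, 7 rose, and without control 1 the median was -0.45. The factors Prdm1 and Maf, which are known to promote Il10 in T cells and were deleted in other experiments of the series, both fell. Prdm1 was at 2.72 and 8.38 against 54.7 and 44.0 CPM (-3.16 ± 0.38, adjusted p = 0.00478). Maf was at 20.3 and 20.7 against 126 and 101 CPM (-2.47 ± 0.18, adjusted p = 0.000449). Both knockout libraries lay below both controls for each gene, as was so for 28.8% of all tested genes. Besides Gzmb, Havcr2 and Itga2, described above, the checkpoint receptor gene Lag3 fell, from 630 and 453 CPM in the controls to 209 and 167 CPM (-1.53 ± 0.20, adjusted p = 0.00672). Others that fell were outside the naming rule and chosen after their values were seen: Entpd1, which encodes the ectonucleotidase CD39, at 11.1 and 9.26 against 31.4 and 30.4 CPM (adjusted p = 0.00692), and Tigit, another checkpoint receptor, at 23.4 and 41.5 against 86.5 and 78.4 CPM (adjusted p = 0.0186).

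Among the Tr1 markers that rose, Cd226, an activating receptor that competes with TIGIT for ligands, was at 45.2 and 43.2 against 13.9 and 13.8 CPM (log2 change 1.67 ± 0.18, adjusted p = 0.00351). Ahr, the aryl hydrocarbon receptor, a partner of Maf on Il10 and Il21, was at 37.3 and 48.3 against 8.19 and 14.0 CPM (1.94 ± 0.28, adjusted p = 0.00826). Egr2, an activation-induced factor, was at 43.3 and 70.6 against 17.3 and 19.1 CPM (1.64 ± 0.25, adjusted p = 0.0105). The fourth, Il21, was at 161 and 210 against 42.5 and 49.7 CPM (2.01 ± 0.19, adjusted p = 0.00191). All 4 had both knockout libraries above both controls, as had 28.9% of all tested genes.

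Of 15 factors deleted in other experiments of the series, 3 rose and 2 fell in the Tbx21 knockout, with a median of 0.12. The rises numbered 6, 5, 1 and 5 without knockout 1, knockout 2, control 1 and control 2, and the falls 4 without knockout 2, while the median was -0.06, 0.21, 0.05 and 0.19. Beside Prdm1, Maf and Ahr, the calls were Atf3, a stress-induced factor, at 33.1 and 61.1 against 12.6 and 17.9 CPM (adjusted p = 0.0241, and 0.0754 without control 1), and Irf9, the DNA-binding part of the ISGF3 complex, at 68.9 and 65.1 against 40.5 and 47.0 CPM (adjusted p = 0.0499, and 0.365 and 0.083 without control 1 and control 2). Batf was at 76.2 and 164 against 37.8 and 57.0 CPM and did not pass (adjusted p = 0.0553).

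Of 13 tested Th17 genes 7 rose and 1 fell, with a median log2 change of 1.94. Without control 1 there were 4 rises, and without knockout 1 there were 4 falls. The member that fell was Basp1, whose product is a membrane-bound signalling protein (-1.07, adjusted p = 0.0164). Il17f, a Th17 cytokine, was at 285 and 36.0 against 0.221 and 1.28 CPM (log2 change 7.68 ± 1.22, adjusted p = 0.0124). Il17a had 54 and 16 counts against 0 and 1, a ratio of 75.1 by summed counts (95% exact interval 13.0 to 3006, adjusted p = 0.0185, and 0.0569 without control 1). Knockout 1 was the higher library for both cytokines and for Il22. Cd5l, a regulator of Th17 pathogenicity in mice, was low throughout, at 5.44 and 4.41 against 0.664 and 0.850 CPM (adjusted p = 0.0265, and 0.225 and 0.0954 without control 1 and control 2). Il23r, the IL-23 receptor chain, was at 43.5 and 2.87 against 8.19 and 8.08 CPM, with the knockout libraries on either side of the controls (adjusted p = 0.307).

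Th2 genes also had calls in only the upward direction: 4 of 13 tested members rose, none fell, and the median was 0.97. Knockout 1 was the lower library for most of them. The median was 1.08 without knockout 1 (17 tested), 0.41 without knockout 2 (14 tested) and 2.04 without control 2 (16 tested). In such fits a gene can pass the count filter by being high in 1 library, as Il4 did without knockout 1, so their calls are not counted here. Gata3, the Th2 master factor, was at 42.3 and 258 against 11.1 and 13.4 CPM (log2 change 3.61 ± 0.73, adjusted p = 0.0272, and 0.0527 without control 1), and the log2 change was 1.78 without knockout 2. Ccr4, a receptor of Th2 and skin-homing cells, was at 128 and 224 against 9.74 and 25.7 CPM (3.31 ± 0.42, adjusted p = 0.0055). Ecm1 was at 232 and 269 against 149 and 106 CPM (0.97 ± 0.19, adjusted p = 0.0263, and 0.112 without control 2), and Il24 is given above. The Th2 cytokines were scarce. Il4 did not reach the count filter, at 7 and 57 counts against 0 and 1 in the controls, a ratio of 68.6 by summed counts (95% exact interval 11.9 to 2752). Il13 was at 2.09 and 30.2 against 0 and 0.425 CPM (adjusted p = 0.0516), and Il5 and Il9 had counts in knockout 2 only.

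The 2 knockout libraries differed from each other. Knockout 2 exceeded knockout 1 in 12 of the 13 tested Th2 genes, whereas knockout 1 exceeded knockout 2 in 9 of the 13 tested Th17 genes. The latter was not particular to Th17 genes. Knockout 1 was also the higher in 27 of 32 tested cell cycle genes and in 16 of 20 tested T-box and Th1 regulators. Knockout 2 was the higher in 27 of 35 tested glycolysis and hypoxia genes. The share over all tested genes was not computed. With 2 libraries this is a description of these cultures. Each knockout library lay above both controls for Gata3, Ccr4, Il17f and Il22, as was so for 28.9% of all tested genes. That separation was a condition for ranking these genes among the largest rises, so it is not read as a result.

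**Figure D3:**
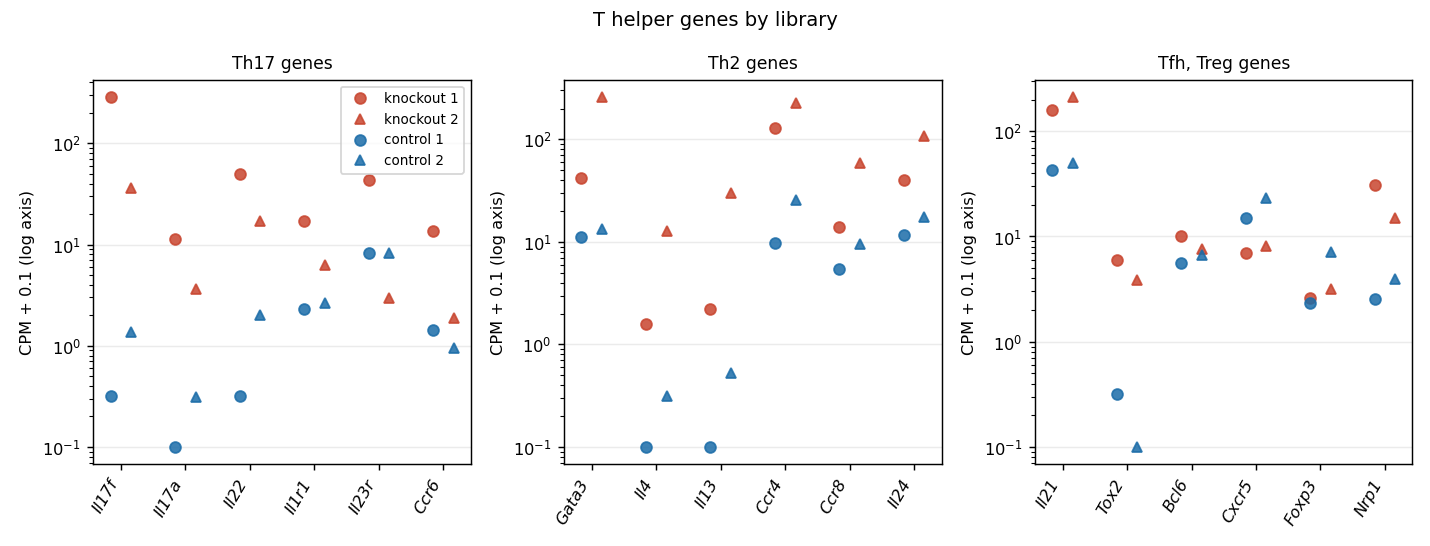
CPM plus 0.1 on a log axis for Th17, Th2, follicular helper and regulatory T cell genes; each point is a library, red for knockout, blue for control, circles for replicate 1 and triangles for replicate 2. Knockout 1 is higher for Il17f and Il22 and knockout 2 for Gata3, Il4 and Ccr4, while Foxp3 points of both groups overlap.

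Follicular helper (Tfh) genes gave 8 rises and 1 fall among 18 tested members, with a median log2 change of 0.94, and without knockout 1 there were 12 rises and 3 falls. Beside Il21, the signature cytokine of Tfh cells, Btla, an inhibitory receptor, was at 196 and 242 against 85.4 and 72.0 CPM (1.48 ± 0.18, adjusted p = 0.00466). Pou2af1, a transcriptional coactivator, was at 47.7 and 36.6 against 16.2 and 14.5 CPM (1.46 ± 0.21, adjusted p = 0.00873). P2rx7, the ATP-gated channel, was at 37.0 and 21.0 against 5.98 and 9.35 CPM (1.92 ± 0.34, adjusted p = 0.0183, and 0.0586 without control 1). Tox2 had 28 and 17 counts against 1 and 0, a ratio of 48.3 by summed counts (95% exact interval 8.23 to 1948, adjusted p = 0.0152, and 0.0507 without control 2). The defining factor and receptor of these cells were not among the rises past the threshold. Bcl6 had 48 and 34 counts against 25 and 31 (log2 change 0.53 ± 0.33, adjusted p = 0.34). Its knockout libraries both lay above both controls, as was so for 28.9% of all tested genes. With 1 library left out, the log2 change of Bcl6 ran from 0.304 to 0.722. A rise of Bcl6 is therefore neither shown nor excluded. Cxcr5 was the member that fell.

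Regulatory T cell genes had 4 rises and 1 fall among 17 tested members, with a median of -0.09, and without control 1 there was 1 rise. Without control 2 the median was 0.18. Foxp3, their defining factor, was scarce, at 2.51 and 3.09 against 2.21 and 7.01 CPM (log2 change -0.72 ± 0.58, adjusted p = 0.468), and its sign turned to 0.33 without control 2. Nrp1, a semaphorin receptor, was at 30.6 and 15.0 against 2.43 and 3.83 CPM (2.85 ± 0.43, adjusted p = 0.00995). Tnfrsf9, which encodes the co-stimulatory receptor 4-1BB, was the member that fell, at 386 and 436 against 1178 and 1233 CPM (-1.55 ± 0.15, adjusted p = 0.00197). The other rises were less stable. Socs2 had an adjusted p of 0.0343 and 0.0659 without control 1. Ebi3, the shared subunit of IL-27 and IL-35, had 0.0421 and 0.173 without control 1. The receptor gene Gpr83 had 0.0343, and its call was lost without knockout 2, control 1 or control 2 (0.0603, 0.147 and 0.0957).

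Among 23 tested co-inhibitory and co-stimulatory receptor genes 5 rose and 6 fell, with a median of 0.47. Without either knockout library or control 2, 9 rose, and without control 1, 3 fell. Without knockout 2 the median was 0.30. Tnfsf8, which encodes the CD30 ligand, was at 47.1 and 73.7 against 12.8 and 10.4 CPM (log2 change 2.37 ± 0.26, adjusted p = 0.00349). With Lag3, Havcr2, Tigit and Tnfrsf9 lower and Btla, Cd226 and Tnfsf8 higher, the receptors did not move as a block.

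Of 35 tested genes listed for type I interferon 14 rose and none fell, with a median log2 change of 0.95. Without control 1 there were 6 rises, without knockout 2 there were 24, and without knockout 1 there were also 5 falls and the median was 0.57. Isg15, a ubiquitin-like protein, was at 49.8 and 38.8 against 7.75 and 6.80 CPM (2.60 ± 0.23, adjusted p = 0.00143). Irf7, a factor that amplifies type I interferon, was at 31.0 and 15.2 against 3.76 and 4.04 CPM (2.56 ± 0.39, adjusted p = 0.0105). Ifitm3, which restricts virus entry, was at 32.7 and 24.7 against 4.43 and 4.25 CPM (2.72 ± 0.27, adjusted p = 0.00208). For all 3 both knockout libraries lay above both controls, as was so for 28.9% of all tested genes. Ifi44 had 37 and 13 counts in the knockout and 0 in both controls, which makes it at least 8.91-fold higher when each control is set to 3 counts (adjusted p = 0.0218, and 0.055 without control 1). Oasl2 was at 8.58 and 6.40 against 0.664 and 1.91 CPM (adjusted p = 0.0295, and 0.192 without control 1).

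Of 35 tested genes listed for interferon gamma and the interferon-inducible GTPases 9 rose and none fell, with a median of 0.28. Without control 1 there were 4 rises and without knockout 2 there were 16, with 2 falls and a median of 0.52. Without knockout 1 there were 4 falls and the median was -0.09. Iigp1, an immunity-related GTPase, was at 88.3 and 45.9 against 12.6 and 17.4 CPM (log2 change 2.16 ± 0.32, adjusted p = 0.00978). The serpin genes Serpina3f (2.15 ± 0.29, adjusted p = 0.00708) and Serpina3g (1.69 ± 0.23, adjusted p = 0.00718) and Cd74, the MHC class II invariant chain (1.52 ± 0.18, adjusted p = 0.00441), also rose. Ido1 had 25 and 10 counts against 0 and 2 (adjusted p = 0.0469, and 0.289 and 0.0582 without control 1 and control 2). Irf1, an interferon-induced factor, did not pass, at 105 and 70.6 against 89.2 and 92.7 CPM (-0.05, adjusted p = 0.914). Knockout 1 was higher than knockout 2 in 30 of the 35 type I genes and in 26 of the 35 of the other list.

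Cytokine receptor, STAT and SOCS genes had 4 rises and 3 falls among 33 tested members, with a median of 0.11, and 7 rose without either knockout library and 6 fell without knockout 1. With 1 library left out the median was 0.07, 0.04, 0.06 and 0.17, in the order knockout 1, knockout 2, control 1 and control 2. Il7r, the IL-7 receptor chain, was at 68.2 and 87.8 against 204 and 203 CPM (log2 change -1.39 ± 0.17, adjusted p = 0.00499). Jak2 was at 534 and 759 against 288 and 314 CPM (1.10 ± 0.19, adjusted p = 0.0169, and 0.0952 without control 1). Il6ra was at 85.6 and 58.2 against 32.5 and 37.4 CPM (1.04 ± 0.21, adjusted p = 0.0263, and 0.118 without control 1). No rise of this list passed without control 1. The receptor chain for the cytokine in the culture, Il27ra, was at 48.3 and 60.9 against 72.4 and 71.4 CPM and did not pass (-0.40, adjusted p = 0.16).

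Naive and memory genes had 1 rise and 3 falls among 22 tested members, where 3.02% of all tested genes rose and 3.77% fell. Their median log2 change was -0.22. The median was -0.54 without knockout 1 and -0.02 without knockout 2. Txk, a Tec-family kinase that can act on Ifng, was at 9.84 and 2.65 against 33.6 and 33.4 CPM (log2 change -2.41 ± 0.43, adjusted p = 0.0183), and its log2 change was -3.65 without knockout 1. Id3, an inhibitor of E proteins, was at 42.3 and 33.3 against 5.98 and 15.3 CPM (1.82 ± 0.36, adjusted p = 0.0263), while its relative Id2 fell. Cd27 had a log2 change of -0.76 (adjusted p = 0.0413, and 0.28 without control 1).

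Of 35 tested glycolysis and hypoxia genes 6 fell, none rose and the median was -0.47. That median was -0.32, -0.69, -0.40 and -0.59 without knockout 1, knockout 2, control 1 and control 2. Ndrg1, a hypoxia-induced gene, was at 157 and 233 against 580 and 521 CPM (log2 change -1.50 ± 0.20, adjusted p = 0.00708). Ankrd37, another hypoxia-induced gene, was at 13.2 and 12.4 against 45.1 and 31.7 CPM (-1.59 ± 0.23, adjusted p = 0.00966). The glucose transporter gene Slc2a3 was at 402 and 671 against 1809 and 1199 CPM (-1.49 ± 0.27, adjusted p = 0.021), and without control 1 its adjusted p was 0.0689. Aldoc (-1.22, adjusted p = 0.02) and P4ha1 (-1.11, adjusted p = 0.0125) had adjusted p-values of 0.0772 and 0.0759 without control 1.

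Cell cycle genes had 3 rises among 32 tested members and no falls, with a median of 0.30. The 3 were Tyms (log2 change 0.99), Ccnb1 (0.65) and Rrm2 (0.59), with adjusted p-values of 0.0301, 0.0432 and 0.0498, and 6 passed without knockout 2 and none without control 1 or without control 2. Immediate early and heat shock genes had 4 rises and 1 fall among 22 tested members, with a median of 0.29, and 9 rose without knockout 1 and 1 without control 1. The median was 0.15 without knockout 2, 0.09 without control 1 and 0.51 without control 2. Egr3 was at 23.0 and 27.1 against 6.20 and 10.4 CPM (adjusted p = 0.0183, and 0.0778 without control 1), and Hsph1 at 137 and 175 against 81.7 and 91.0 CPM (adjusted p = 0.0272, and 0.209 and 0.063 without control 1 and control 2). Ier3 was the member that fell (-0.72, adjusted p = 0.0296, and 0.192 without control 1).

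**Figure D4:**
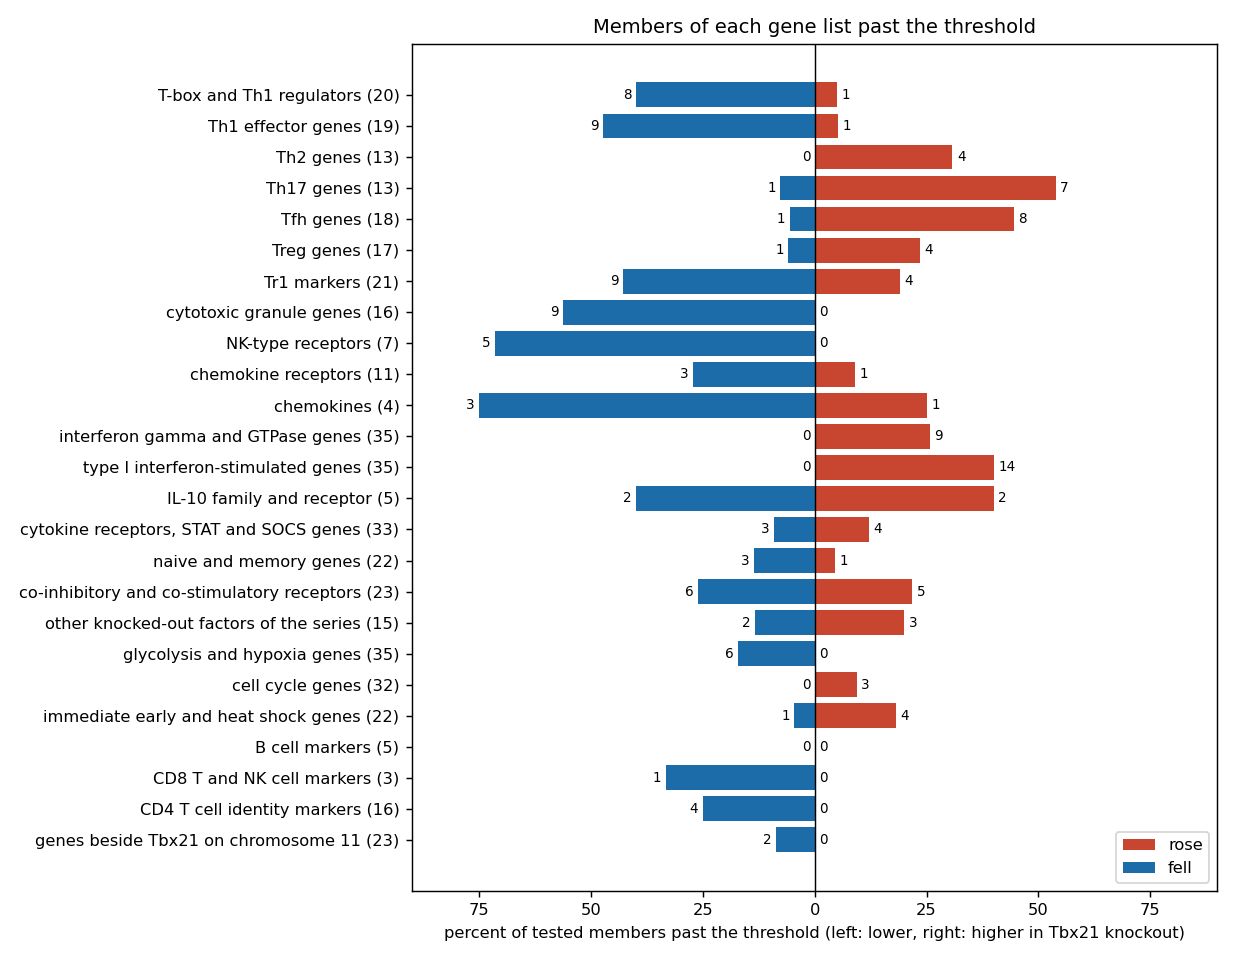
Bars give the percent of tested members of each gene list that rose (red, right) or fell (blue, left) past the adjusted threshold in the Tbx21 knockout; numbers beside the bars are gene counts and numbers in brackets the members tested. Over all tested genes 3.02% rose and 3.77% fell; lists of few tested members, such as chemokines with 4, give large percentages from few genes, and the myeloid, erythroid and sex gene lists, with no calls, are not drawn.

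Outside the lists, the naming rule gave further large rises. Timd2, a TIM family gene, had 11 and 202 counts against 0 and 1, a ratio of 228 by summed counts (95% exact interval 40.6 to 9063, adjusted p = 0.0469, and 0.0988 without control 1). Mmp7, which encodes matrilysin, had 68 and 180 counts against 0 and 2, a ratio of 133 (36.4 to 1104, adjusted p = 0.00531). Il1rn, the IL-1 receptor antagonist, was at 13.4 and 31.5 against 0.221 and 3.61 CPM (log2 change 3.51 ± 0.71, adjusted p = 0.027). The call was lost with DESeq2 (adjusted p = 0.186), and the log2 change was 6.50 without control 2. All 3 were higher in knockout 2 than in knockout 1. Egfr, the epidermal growth factor receptor, was at 30.8 and 24.0 against 3.98 and 3.19 CPM (2.93 ± 0.28, adjusted p = 0.00195). Mgll, which encodes monoacylglycerol lipase, was at 20.1 and 28.2 against 2.88 and 2.55 CPM (3.14 ± 0.31, adjusted p = 0.00221). Rai14 was at 7.12 and 36.0 against 1.33 and 2.98 CPM (adjusted p = 0.043, and 0.0537 and 0.114 without knockout 2 and control 1). Among the falls, Dapk2, a death-associated kinase, was at 1.26 and 2.43 against 26.1 and 21.5 CPM (-3.68 ± 0.35, adjusted p = 0.00191).

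To see which changes differed from those of other deletions, the Tbx21 effect was set against 2 experiments with their own controls, and the difference of the log2 changes was tested as an interaction in edgeR. The first had 2 libraries labelled Ets1 KO and 2 labelled WT. In it Ets1 itself was not lower (log2 change 0.20 ± 0.07, adjusted p = 0.0518), so the label is used here as given. The second had 3 Prdm1 knockout libraries (CD4 Cre with floxed Prdm1, that is, deletion in CD4-expressing T cells and their progenitors) and 3 Cre-negative controls. Prdm1 in it had a log2 change of -2.98 ± 0.19. Both are labelled C57BL/6 with the culture described above. The effects differed in 1018 genes for Ets1 (9.03% of 11274 tested) and in 1737 for Prdm1 (14.7% of 11783 tested), and without Tbx21 control 1 in 557 and 807. Without Tbx21 knockout 1 the count for Ets1 was 1545. The genes below were chosen for their change in the Tbx21 knockout, so their number among the calls is not read. For genes chosen by size, that choice also favours a larger change here than in the other experiments. Their differences and p-values are given as a description.

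For the cytotoxic genes, Nkg7 changed by -0.44 in the libraries labelled Ets1 KO and by -0.14 in the Prdm1 knockout, against -6.22 here, with differences of -5.79 ± 0.24 (adjusted p = 5.25e-07) and -6.06 ± 0.19 (adjusted p = 3.26e-10). Gzmb was higher in the Ets1 comparison (1.13) and lower in the Prdm1 knockout (-0.81), and both differences passed (adjusted p = 4.02e-06 and 1.13e-06). The NK-type receptor gene Klrc1 was lower in all 3 comparisons, at -5.94, -2.48 and -0.58. The differences were -3.47 ± 0.48 and -5.35 ± 0.34 (adjusted p = 0.0014 and 6.98e-07). For Ctsw the fall of -4.75 did not differ past the threshold from the -2.57 of the Ets1 comparison (adjusted p = 0.0546), a difference of -2.19 ± 0.63, but differed from the 0.35 in the Prdm1 knockout (adjusted p = 8.85e-06).

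For Il10 the 3 comparisons had 3 sizes, with a log2 change of 1.99 ± 0.11 for Ets1, -1.81 ± 0.59 for Tbx21 and -5.70 ± 0.17 for Prdm1. The Tbx21 effect differed from that for Ets1 by -3.82 ± 0.66 (adjusted p = 0.00428) and from that for Prdm1 by 3.89 ± 0.71. The Prdm1 experiment was chosen because it had the largest fall of Il10 of a single knockout. Its Il10 difference is therefore a description, and no p-value is read for it. Prdm1 transcript in the Tbx21 knockout, at -3.16, differed from that in the Prdm1 knockout by -0.16 ± 0.46 (adjusted p = 0.85), which does not show that they were alike. Maf was lower in both the Tbx21 and Prdm1 knockouts, at -2.47 and -0.97, and the difference passed (adjusted p = 0.000215).

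Among the genes that rose here, Isg15 was lower in the Ets1 comparison (-1.61) and the difference was 4.21 ± 0.31 (adjusted p = 2.53e-05); for the Prdm1 knockout it was 3.03 ± 0.32 (adjusted p = 7.76e-05). Gata3 was at 3.61 here and at 1.64 in the Ets1 comparison, a difference of 1.96 ± 0.96 that did not pass (adjusted p = 0.253). Il22 was higher in both, at 4.91 here and 6.94 in the Ets1 comparison, again with no difference past the threshold (-2.05 ± 1.47, adjusted p = 0.451).

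**Figure D5:**
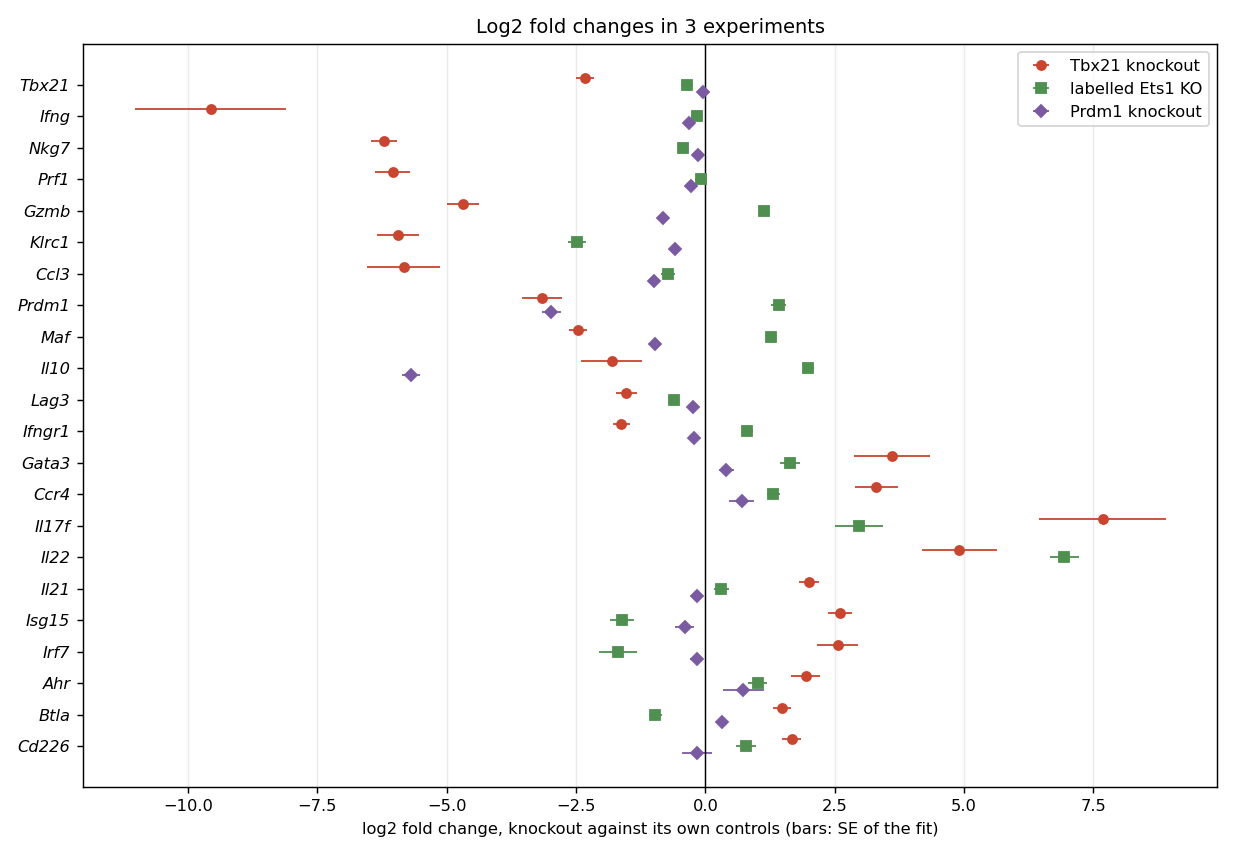
Log2 fold changes with SE bars for named genes in the Tbx21 knockout (red circles), the libraries labelled Ets1 KO (green squares) and the Prdm1 knockout (purple diamonds), each against its own controls; Il17f and Il22 have no Prdm1 point because they did not reach the count filter there, and the Ifng value for Tbx21 rests on 1 knockout count. Nkg7, Prf1 and Gzmb lie far below 0 for Tbx21 alone, and Il10 is higher for Ets1 and lowest for Prdm1, an experiment chosen for its fall of Il10.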

How the data were processed

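The authors' tables, 1 per library, hold expected counts per gene estimated with RSEM after TopHat alignment to mm9, per the submitters' processing notes. Their versions and the annotation: not given in the sources used here. As deposited, the expected counts are not scaled for depth, and 21.5% of the nonzero ones in the 4 Tbx21 libraries are not whole, so they were rounded. TPM, scaled by the authors for length and depth, was used as deposited only where named. RSEM divides reads among near-identical genes, so genes with close paralogues (Klr, Serpina3, Gzm, Ccl) are less certain. Strand use is not stated.

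The 4 libraries were fitted with edgeR 4.0.16 in R 4.3.3 (filterByExpr, TMM, estimateDisp, quasi-likelihood F-test), with Benjamini-Hochberg adjustment over all 10978 genes tested of 23366. Differences between experiments were interaction terms fitted over the libraries of both. Intervals from summed counts are exact binomial and, like bounds against 3 counts, cover counting error only. Alternatives were DESeq2 size factors, DESeq2 1.42.0, no filter, a replicate block, leaving out each library and 1 fit over 64 libraries with at least 100000 counts. No 2 libraries of a group were alike within sampling noise (chi-square per degree of freedom 12.2 for knockout and 7.25 for control).

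The naming rule took Tbx21, Il10, Eomes and other tested T-box genes, Ifng, Cxcr3, Gata3, Il4, Foxp3, Bcl6, Prdm1 and Maf whatever their result, up to 12 rises and 12 falls of largest log2 change past the threshold without overlap (mean of the higher group 20 CPM or more), up to 5 called members of each list, and called deleted factors. Predicted, ribosomal, small RNA, antigen receptor and sex genes were not ranked. Some genes the rule takes are not reported here. Other genes given with values were chosen after their values were seen. Members and lists were chosen with earlier results of these data known. Promoter sequences are RefSeq's.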

Additional observations from a re-analysis of the deposited data

How the results depend on the processing

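Against 745 genes in the comparison as fitted, 744 passed with DESeq2 size factors and 693 with DESeq2 (562 shared). Without the filter on low counts 1178 passed and in 1 fit over all libraries 1068 (644 shared). Nothing in the labels ties equal replicate numbers to a shared animal or day, and deviations of same-numbered libraries correlated by 0.180 in 2 pairs, which does not settle it; with the number as a replicate block 1783 genes passed, 744 of them shared with the fit without it. Leaving out 1 library gave 195 to 1730 genes, and left a group with 1 library that is assumed to vary like the others. Tbx21 passed in all 9 alternatives (log2 change -2.47 to -2.16 with 1 library left out). Il10 did not pass as fitted; it passed without the filter (log2 change -1.81), with the replicate block (-1.94) and in the fit over all libraries (-1.81), and ranged from -3.41 to -1.06 with 1 library left out. Differences from the Ets1 comparison numbered 1018, with 1646 without the filter and 557 to 1545 with 1 Tbx21 library left out; those from the Prdm1 knockout numbered 1737, with 807 to 2014. With 1 library left out, the log2 change of Eomes ran from -0.95 to 1.77 and that of Cxcr3 from -0.41 to 0.40, turning sign without knockout 1 or control 1 (Eomes -0.24 and Cxcr3 -0.26 for the latter), and that of Foxp3 from -1.32 to 0.33, turning without control 2. Of the named genes past the threshold, calls were lost by 10 with DESeq2 (Ccl5, Cd5l, Copz2, Cxcr5, Gpr83, Ido1, Il1rn, Irf9, Itga2 and Socs2), by 6 in the fit over all libraries (Ccnb1, Cd5l, Ecm1, Ier3, Il6ra and Rrm2), and 1, 4, 37 and 19 without knockout 1, knockout 2, control 1 and control 2, and by 0 with the other 3 settings. Genes that a fit left untested are not counted as lost. These were Ido1 and Ifi44 without knockout 1, Timd2 without knockout 2 and Klre1 without control 2. The cause of the changes in calls was not tested. At this depth 3 counts are 0.617 to 0.674 CPM, which limits statements on genes such as Il4, Il5 and Eomes.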

Other observations

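Fam177a met the naming rule for large rises, with 135 and 94 counts in the knockout and 0 in both controls, at least 40.9-fold higher when each control is set to 3 counts (edgeR adjusted p = 0.0011). In 60 other libraries its median was 20.4 CPM of the library total, and 5 of them were below 2 CPM. Both controls of the Ets1 comparison were among these 5, with 0 and 8 counts, beside 233 and 93 counts in the libraries labelled Ets1 KO. The second Batf knockout library, also among them, had 0 counts of a total of 2727155, and the first had 97 of 2327712.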
